A study of Mus musculus with 12 samples.

Results

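The main effect of stress was followed in brain RNA of all 12 mice of the series. The 6 stressed mice were set against the 6 unstressed mice, whether they had been given water or krill oil (called diets below). The mice were wild-type male C57/BL6J mice bought at 8 weeks of age. The unstressed groups received water (C_W, 3 mice) or krill oil (C_O, 3 mice) and the stressed groups went through chronic unpredictable mild stress (CUMS) with water (MS_W, 3 mice) or krill oil (MS_O, 3 mice). CUMS is a rodent model of depression in which mild stressors such as restraint, tilted cages, strobe light, white noise and social isolation come in an order the animal cannot foresee. It lasted 4 weeks. Krill oil, a source of n-3 polyunsaturated fatty acids, was given into the stomach at 200 mg/kg each day for 5 weeks, and the water mice had the same volume of water. Behavior was measured in 8 mice of each group, of which 3 were picked at random for RNA, and the brains were taken after perfusion with saline.

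A stressor reaches the genome mainly through the hypothalamus, the pituitary and the adrenal gland, and the released corticosteroid binds the mineralocorticoid and glucocorticoid receptors of neurons and glia, which then switch target genes on or off. In parallel, glutamate and GABA, the main excitatory and inhibitory transmitters of the brain, and the monoamines shape how strongly the stress circuits fire. Chronic stress is known to remodel these systems in a way that differs between brain regions, so that opposite differences in separate regions can cancel in RNA of a whole brain.

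Of the 55385 genes in the table, the 21393 with a mean of at least 0.1 FPKM (fragments mapped to a gene per kilobase of its transcript, relative to the depth of the library) over the 12 mice were tested. The log2 difference given below is stressed minus unstressed on the scale of log2(FPKM + 1), adjusted for krill oil in an additive limma fit, and it understates the change of genes with low values. Each mouse gave 1 library, named by group and mouse number, and a gene without an estimate in a library is listed at 0.0001 FPKM. In bulk RNA of this kind, fewer cells of a type and less RNA per cell cannot be told apart.

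Before any gene is described, the tissue has to be set against its label. Libraries C_O72 (unstressed) and MS_W95 (stressed) stood apart, with a Pearson correlation of 0.9697 to each other across genes, at most 0.9369 to the other 10, and at least 0.9591 among those 10. Their summed FPKM over 13 hindbrain marker genes, mostly Hox genes, was 92.7 and 34.6, whereas the other 10 libraries had at most 0.0981, and 11 cerebellum markers summed to 348 and 1170.4 against at most 54.1. The defining markers of the hindbrain were thus at or near 0 in 10 of 12 libraries labelled brain. Estimated counts per library ranged from 50912906 to 75678721, with medians of 69932809.5 in unstressed and 56961530 in stressed mice. As 1 of these libraries lies on each side of the comparison, values are also given for the 10 libraries without them. Within diets the pair is not balanced. MS_W95 is on the stressed side in water and C_O72 on the unstressed side in krill oil. The median log2 difference of the cerebellum markers was 1.46 in water and -0.89 in krill oil. Differences of single genes and lists within a diet are given below with 12 libraries only.

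No gene passed an adjusted p under 0.05 for stress. The smallest adjusted p by limma was 0.239, and 2553 genes had an unadjusted p under 0.05, of which 1886 were higher (8.82% of the genes tested) and 667 lower (3.12%) in stressed mice. The edgeR quasi-likelihood test on the estimated counts also called 0 genes after adjustment and 2024 before it, while DESeq2 on these counts called 214 after adjustment (113 higher and 101 lower). For 176 genes (0.823%) all 6 stressed mice were above all 6 unstressed mice, and for 30 genes (0.14%) all were below. The excess of higher genes depended on how the libraries were scaled. Of the genes with an unadjusted p under 0.05, 73.9% were higher on the deposited FPKM scale, 46.7% after quantile normalization, 25.8% with each library centred on its own median, and 51.2% with edgeR. The median of log2(FPKM + 1) per library was 1.62 to 1.69 in unstressed and 1.67 to 1.78 in stressed mice. The signs of all 83 genes followed below, and of Myo5a, Efnb3, Mapt and the main Arhgef4 gene, were the same under these 3 other scalings.

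More genes were called without C_O72 and MS_W95. With the 10 remaining libraries 3118 genes were higher (14.6%) and 1475 lower (6.89%) at an unadjusted p under 0.05. Of the 21393 genes, 750 higher and 277 lower had no overlap, counts that leaving out mice can only keep or raise. After adjustment 2 genes passed the threshold. These were Myo5a, which encodes the motor myosin Va, with a log2 difference of 1.25 (limma, adjusted p = 0.0160), and Efnb3, which encodes the guidance ligand ephrin B3, with 0.79 (adjusted p = 0.0360), both higher in stressed mice and both named after their values were seen. With 12 libraries the log2 difference of Myo5a was 0.80 (limma, unadjusted p = 0.0203, adjusted p = 0.363). That of Efnb3 was 0.48 (limma, unadjusted p = 0.0544, adjusted p = 0.426), which missed the unadjusted threshold as well. Leaving out MS_O13 alone also raised the number of genes at an unadjusted p under 0.05, to 3459.

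The 12 higher and 12 lower genes of smallest p, with a mean FPKM of at least 1 and no overlap between stressed and unstressed mice, were followed one by one. Each had an exact two-sided permutation p of 0.005, the smallest that the 400 relabelings of mice within diets can give, and adjusted limma p from 0.239 to 0.334. All 24 had the same sign in water and in krill oil, and in each of 25 alternative settings. Because they were picked for their p and their lack of overlap, these values describe them and are no independent support. The ratio of mean FPKM, stressed to unstressed, lay between 0.428 and 2.02.

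Gad2 (ENSMUSG00000026787, chromosome 2, 22622205 to 22693874), which encodes the synaptic form of glutamate decarboxylase, the enzyme that makes GABA, had the highest ratio of means, 2.02. Its values were 25.9, 24.8 and 23.6 FPKM in C_W, 21.9, 26.1 and 21.3 FPKM in C_O, 60.4, 67 and 33.3 FPKM in MS_W and 32.4, 50.1 and 47.2 FPKM in MS_O. Every stressed mouse lay above the highest unstressed mouse, and the 6 unstressed mice were close together, with 23.9 ± 2.0 FPKM in unstressed and 48.4 ± 14 FPKM in stressed mice. The log2 difference was 0.94 (SE 0.166, limma, unadjusted p = 0.000129, adjusted p = 0.239).

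Genes of ion channels and glutamate receptors stood beside it. Kcnd2 (ENSMUSG00000060882, chromosome 6, 21215503 to 21729805), which encodes the A-type potassium channel Kv4.2 of dendrites, had 12.6 to 16.6 FPKM (median 14.2) in the 6 unstressed mice and 18.9 to 29.1 FPKM (median 21.9) in the 6 stressed mice, a log2 difference of 0.59 (SE 0.101). Grik2 (ENSMUSG00000056073, chromosome 10, 49094833 to 49788766), which encodes the kainate receptor subunit GluK2, had 2.2 to 3.41 FPKM (median 3.19) in the 6 unstressed mice and 3.7 to 5.31 FPKM (median 4.97) in the 6 stressed mice, a log2 difference of 0.52 (SE 0.0897). In both genes the stressed and unstressed mice were separate, and the differences in water and krill oil were close to each other, at 0.56 in water and 0.62 in krill oil for Kcnd2 and 0.54 in water and 0.51 in krill oil for Grik2.

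Pcp4 (ENSMUSG00000090223, chromosome 16, 96467606 to 96525793), which encodes a small regulator of calmodulin abundant in several neuron types, was the most abundant of the higher genes. It had 138 to 213 FPKM (median 198) in the 6 unstressed mice and 243 to 349 FPKM (median 300.0) in the 6 stressed mice, a log2 difference of 0.63 (SE 0.116). Tbc1d8 (ENSMUSG00000003134, chromosome 1, 39371492 to 39478755), a member of the TBC family of Rab GTPase regulators, had the smallest unadjusted p of the set, with 3.29 to 5.28 FPKM (median 4.0) in the 6 unstressed mice and 6.51 to 8.6 FPKM (median 6.64) in the 6 stressed mice and a log2 difference of 0.70 (SE 0.118, limma, unadjusted p = 8.42e-05, adjusted p = 0.239). For Tbc1d8 the difference was 0.90 in water and 0.51 in krill oil, and the interaction of stress and krill oil had an unadjusted limma p of 0.0962. Qpct, which encodes glutaminyl cyclase, a modifier of peptide hormones, had 3.37 to 4.04 FPKM (median 3.76) in the 6 unstressed mice and 4.82 to 7.17 FPKM (median 6.99) in the 6 stressed mice, and Rab34, a small GTPase of the Golgi and of primary cilia, had 2.76 to 4.71 FPKM (median 4.11) in the 6 unstressed mice and 5.76 to 9.84 FPKM (median 7.13) in the 6 stressed mice.

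Hnrnpa2b1, which encodes a nuclear ribonucleoprotein that carries and splices RNA, was abundant and had a smaller but even difference, with 38 to 42.2 FPKM (median 39.7) in the 6 unstressed mice and 43.6 to 56.2 FPKM (median 51.1) in the 6 stressed mice and a log2 difference of 0.34 (SE 0.0645). Other higher genes were Zswim5, Fam184b and the transcriptional cofactor Lmo2, with log2 differences of 0.63 (SE 0.112), 0.46 (SE 0.0832) and 0.71 (SE 0.141).

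Among the lower genes, Sncb (ENSMUSG00000034891, chromosome 13, 54758860 to 54766595), which encodes beta-synuclein of presynaptic terminals, was the most abundant. Its values were 184, 171 and 167 FPKM in C_W, 178, 191 and 175 FPKM in C_O, 128, 139.9 and 134 FPKM in MS_W and 158, 144 and 158 FPKM in MS_O. The highest stressed mouse was below the lowest unstressed mouse, and the log2 difference was -0.31 (SE 0.0659, limma, unadjusted p = 0.000659, adjusted p = 0.263). Klc2 (ENSMUSG00000024862, chromosome 19, 5107746 to 5118300), which encodes a light chain of the transport motor kinesin, had 46.7 to 66.8 FPKM (median 53.9) in the 6 unstressed mice and 31.1 to 44.7 FPKM (median 40.8) in the 6 stressed mice, a log2 difference of -0.49 (SE 0.112). Galnt9, which encodes an enzyme that starts mucin-type glycosylation and is used mainly in brain, had the largest lower difference, -1.19 (SE 0.268), with 23.1 to 54.2 FPKM (median 34.1) in the 6 unstressed mice and 8.41 to 21.6 FPKM (median 13.6) in the 6 stressed mice.

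The lower gene with the smallest p carried the symbol Arhgef4, which belongs to an exchange factor of small GTPases, but its row (ENSMUSG00000118272) is a model of 171 bases (chromosome 1, 34801794 to 34801964) that lies inside the main Arhgef4 gene, so reads could be split between them and its level is uncertain. It had 18.3 to 24.2 FPKM (median 20.1) in the 6 unstressed mice and 8.34 to 15.8 FPKM (median 13.8) in the 6 stressed mice. The main gene (ENSMUSG00000037509, chromosome 1, 34678188 to 34813309) had 20.1 ± 2.79 FPKM in unstressed and 15.6 ± 3.70 FPKM in stressed mice, a log2 difference of -0.37 (SE 0.148, limma, unadjusted p = 0.0303), and its groups overlapped. Other lower genes were regulators of small GTPases, Asap2 and Arhgap35, with log2 differences of -0.59 (SE 0.138) and -0.24 (SE 0.0616). Hspa12a, a distant relative of the heat shock protein 70 chaperones, differed by -0.37 (SE 0.0911), the transcription elongation factor Tcea2 by -0.28 (SE 0.0733), and Aimp2, a scaffold of the tRNA synthetase complex, by -0.19 (SE 0.0568). Lurap1l, Ccdc28a and Ccdc65 completed the set, with log2 differences of -0.40 (SE 0.0905), -0.42 (SE 0.102) and -0.36 (SE 0.090). Aimp2 had the smallest difference of all 24, yet its unstressed mice (10.5 to 12.3 FPKM) and stressed mice (9.36 to 10.3 FPKM) did not overlap.

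**Figure D1:**
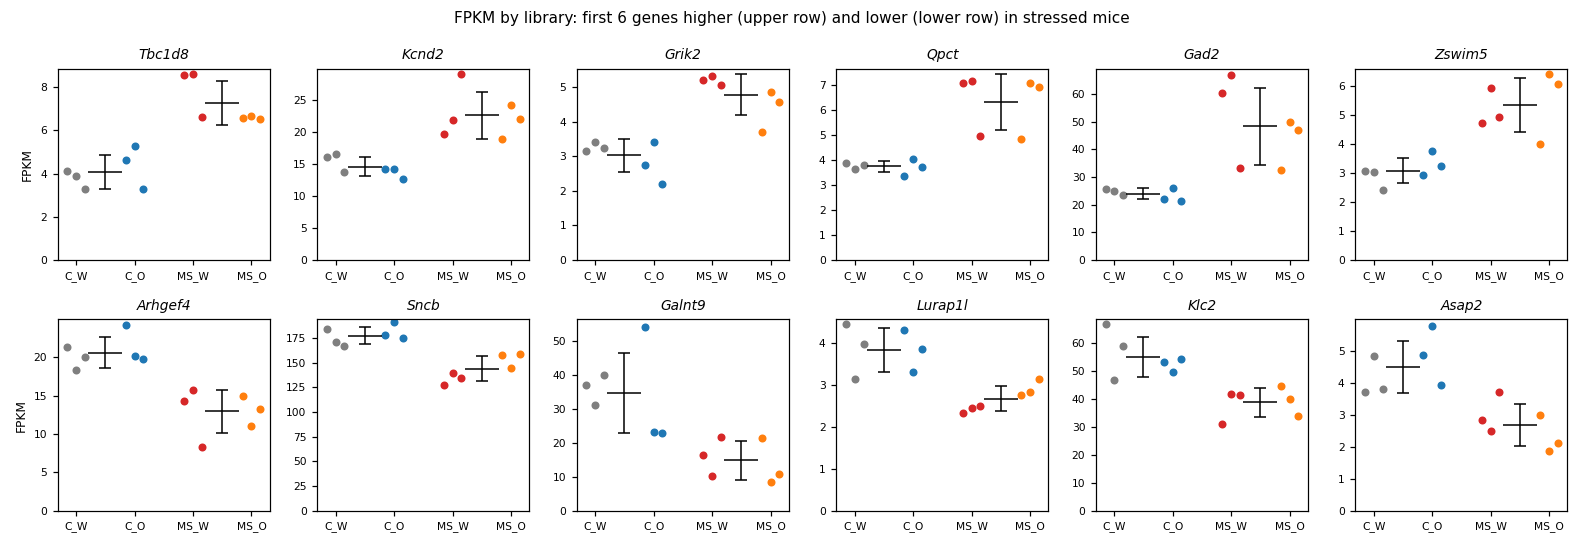
FPKM on a linear axis from 0 for the first 6 higher genes (upper row) and first 6 lower genes (lower row) by unadjusted p, with 1 point per mouse by group. Black bars give the mean and SD of the 6 unstressed or 6 stressed mice, and in each panel all points of the stressed groups lie on the same side of all points of the unstressed groups.

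Lists of genes for systems known to take part in stress were then read against the background of 8.82% higher and 3.12% lower over all tested genes, whose median log2 difference was 0.047. For each list, members at an unadjusted limma p under 0.05 were counted, with 12 libraries where no number is given and then with the 10 libraries, whose background was 14.6% higher and 6.89% lower. With 12 libraries none of these members had an adjusted p under 0.05. Counts under other scalings have another background. Of all 21393 genes, 1004 were higher and 1145 lower after quantile normalization, 639 and 1837 with centred libraries, and 1036 and 988 with edgeR.

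The GABA list held the presynaptic set beside the receptors. Of 19 genes, 3 were higher and 1 lower, and the median log2 difference was 0.071. The higher members were Gad2, Gad1 and Slc32a1, which make GABA and load it into vesicles. Gad1 (ENSMUSG00000070880, chromosome 2, 70553072 to 70602014), the other glutamate decarboxylase, had 86.2, 75.4 and 48.6 FPKM in C_W, 51.7, 51.6 and 36 FPKM in C_O, 106, 97.6 and 68.7 FPKM in MS_W and 67.7, 198 and 167 FPKM in MS_O. Its log2 difference was 0.94 (SE 0.302, limma, unadjusted p = 0.0097, adjusted p = 0.343), and MS_O46 and MS_O78 lay far above the other mice. Slc32a1 (ENSMUSG00000037771, chromosome 2, 158610767 to 158615748), the vesicular GABA transporter, had 42.3, 36 and 29.2 FPKM in C_W, 34.2, 38.4 and 68.4 FPKM in C_O, 72.2, 75.5 and 60.2 FPKM in MS_W and 45.7, 73.7 and 75.7 FPKM in MS_O, a log2 difference of 0.72 (SE 0.195, limma, unadjusted p = 0.00351, adjusted p = 0.334). The groups of Slc32a1 overlapped only through C_O72 at 68.4 FPKM, which lay above MS_W95 and MS_O13. The lower member was Gabbr2, a subunit of the metabotropic GABA-B receptor, with 24.5 to 60.2 FPKM (median 50.8) in the 6 unstressed mice and 19.7 to 48.9 FPKM (median 30.2) in the 6 stressed mice. None of the GABA-A receptor subunit genes on the list had an unadjusted p under 0.05. The same counts of 3 higher and 1 lower were found after quantile normalization, with centred libraries and with edgeR, and 5 higher and 3 lower with 10 libraries.

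Of 22 glutamate receptor genes 3 were higher and 0 lower (6 higher and 2 lower with 10 libraries). Gria1 (ENSMUSG00000020524, chromosome 11, 57011387 to 57330244), which encodes the AMPA receptor subunit GluA1, had 51.8, 60.7 and 51.4 FPKM in C_W, 54.8, 56.1 and 32.5 FPKM in C_O, 83.3, 73.7 and 74.4 FPKM in MS_W and 62.4, 84.4 and 81.7 FPKM in MS_O. All stressed mice were above all unstressed mice, with a log2 difference of 0.59 (SE 0.138, limma, unadjusted p = 0.00123, adjusted p = 0.278). Together with Grik2 these were the glutamate receptor genes without overlap. Subunits of NMDA receptors had none at an unadjusted p under 0.05.

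Vesicle release genes gave 1 higher and 1 lower of 25, and 3 higher and 10 lower with 10 libraries. Snap25, which encodes a component of the fusion machinery, had 325 to 421 FPKM (median 412) in the 6 unstressed mice and 242 to 386 FPKM (median 267) in the 6 stressed mice, a log2 difference of -0.44 (SE 0.131, limma, unadjusted p = 0.00621, adjusted p = 0.334). Doc2b, a calcium sensor of spontaneous release, had 3.54, 2.87 and 2.24 FPKM in C_W, 3.91, 7.72 and 6.07 FPKM in C_O, 16.4, 17.7 and 19.9 FPKM in MS_W and 7.07, 6.59 and 7.25 FPKM in MS_O. Its difference was 2.30 in water and 0.25 in krill oil, and the interaction with krill oil had an unadjusted limma p of 1.86e-05 and an adjusted p of 0.199. All MS_W mice lay above all C_W mice, while the MS_O and C_O mice overlapped. Of 8 genes that mark neurons in general, 2 (Snap25 and the RNA-binding protein gene Elavl4) were lower, and 6 with 10 libraries.

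**Figure D2:**
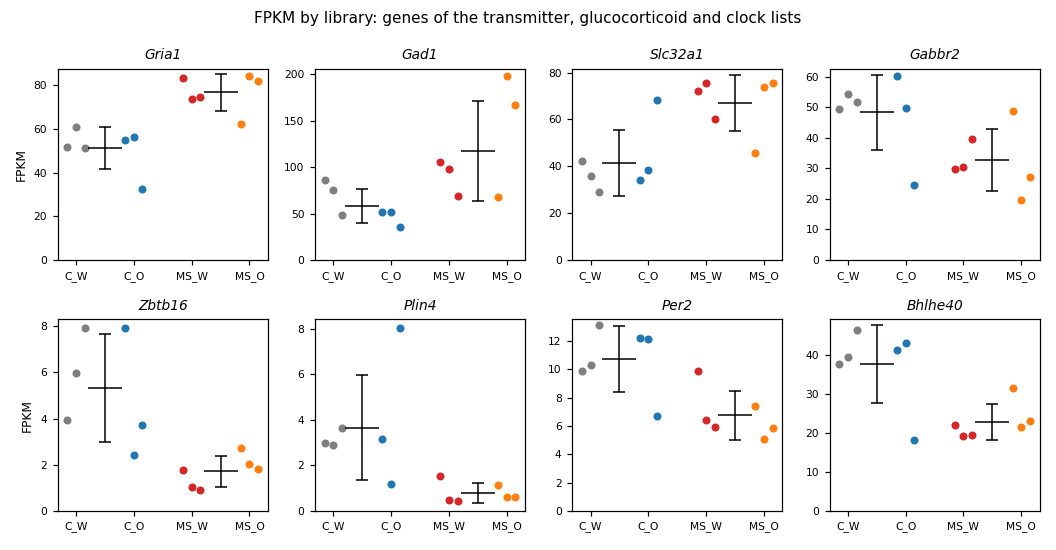
FPKM on linear axes from 0 for 8 genes of the transmitter, glucocorticoid and clock lists, with 1 point per mouse and black bars for the mean and SD of the 6 unstressed and 6 stressed mice. Gria1 separates the groups, whereas in the other panels at least 1 mouse crosses, such as C_O72 in the panels of Slc32a1, Gabbr2 and Bhlhe40.

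Targets of the glucocorticoid receptor were more often lower than higher, while their summed FPKM overlapped between stressed and unstressed mice. Of 18 such genes, 0 were higher and 3 lower, and the median log2 difference was -0.11. With 10 libraries 1 higher and 4 lower were counted, and the median was -0.056. The summed FPKM of the list was 325 to 716 in unstressed and 304 to 443 in stressed mice. In the 10 libraries it was 325 to 398 in unstressed and 304 to 443 in stressed mice. Zbtb16 (ENSMUSG00000066687, chromosome 9, 48654297 to 48836222), which encodes a transcriptional repressor induced by corticosteroids, had 3.93, 5.96 and 7.95 FPKM in C_W, 7.95, 2.43 and 3.7 FPKM in C_O, 1.77, 1.03 and 0.893 FPKM in MS_W and 2.74, 2.02 and 1.81 FPKM in MS_O. Its log2 difference was -1.17 (SE 0.262, limma, unadjusted p = 0.000865, adjusted p = 0.263), and C_O30 was the 1 unstressed mouse within the range of the stressed mice. Plin4 (ENSMUSG00000002831, chromosome 17, 56100591 to 56109803), which encodes a coat protein of lipid droplets, had 2.99, 2.87 and 3.64 FPKM in C_W, 3.14, 1.18 and 8.03 FPKM in C_O, 1.55, 0.459 and 0.428 FPKM in MS_W and 1.14, 0.592 and 0.62 FPKM in MS_O, a log2 difference of -1.27 (SE 0.288, limma, unadjusted p = 0.000939, adjusted p = 0.263). C_O30 again crossed into the stressed range, and C_O72 was far above the rest. Without C_O72 and MS_W95 the difference of Plin4 was -0.94. Sult1a1, a sulfotransferase, was the third, with 5.29 to 9.92 FPKM (median 6.73) in the 6 unstressed mice and 3.52 to 6.31 FPKM (median 5.58) in the 6 stressed mice. The number of lower members was 7 after quantile normalization, 8 with centred libraries and 7 with edgeR, with 0 higher in each. Lower genes were also more frequent over all 21393 tested genes in these settings. They numbered 1145, 1837 and 988, against 667 on the FPKM scale. Tsc22d3, which encodes the glucocorticoid-induced leucine zipper, had 11 to 38.6 FPKM (median 16.9) in the 6 unstressed mice and 8.1 to 22.4 FPKM (median 10.6) in the 6 stressed mice, a log2 difference of -0.61 (SE 0.285, limma, unadjusted p = 0.0542, adjusted p = 0.426).

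The start of transcription was read for Slc32a1 and Plin4, members of the GABA and glucocorticoid lists whose start in RefSeq lay close to that of the table (9 and 21 bases apart). Shown are the 250 bases before the RefSeq start on build GRCm38.p6, 5′ to 3′ on the strand of the gene, at chr2:158610508-158610757 (plus strand) for Slc32a1 and chr17:56109783-56110032 (minus strand) for Plin4. Capitals mark matches on either strand to TATAA (the TATA box), the CCAAT box, GGGCGG (the GC box), AGAACA (a half-site of the glucocorticoid receptor) or TGACG (a half-site of the cyclic AMP response element).
Slc32a1: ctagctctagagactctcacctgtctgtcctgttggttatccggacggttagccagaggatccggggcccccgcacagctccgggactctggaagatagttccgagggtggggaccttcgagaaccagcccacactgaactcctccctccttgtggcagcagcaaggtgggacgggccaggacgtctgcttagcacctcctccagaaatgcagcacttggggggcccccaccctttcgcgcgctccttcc
Plin4: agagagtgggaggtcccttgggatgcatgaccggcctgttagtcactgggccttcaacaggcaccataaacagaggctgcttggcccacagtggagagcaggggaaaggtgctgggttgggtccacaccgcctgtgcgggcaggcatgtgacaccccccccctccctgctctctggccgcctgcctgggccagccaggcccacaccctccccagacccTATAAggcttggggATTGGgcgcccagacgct
The Plin4 window held 1 TATA box and 1 CCAAT box, and these letters were not found in the Slc32a1 window. Across the windows of 27025 genes, 23.5% held the TATA box, 34.5% the CCAAT box, 32.9% the GC box, 16.2% the glucocorticoid receptor half-site and 17.9% the cyclic AMP half-site. A match describes the letters only.

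Of 14 genes of the corticotropin axis, which lies upstream of these targets, 1 was higher with 12 libraries, and 5 higher and 2 lower were counted with 10. The gene with 12 libraries was Nr3c2, the mineralocorticoid receptor, with 3.36 to 5.66 FPKM (median 5.32) in the 6 unstressed mice and 4.77 to 7.76 FPKM (median 6.24) in the 6 stressed mice, a log2 difference of 0.31 (SE 0.127, limma, unadjusted p = 0.0306, adjusted p = 0.377), and it did not pass the unadjusted threshold after quantile normalization or with centred libraries. Nr3c1, the glucocorticoid receptor, had 6.08 to 12.3 FPKM (median 10.2) in the 6 unstressed mice and 5.87 to 9.93 FPKM (median 7.33) in the 6 stressed mice, a log2 difference of -0.31 (SE 0.166, limma, unadjusted p = 0.0915, adjusted p = 0.486). Both receptors thus had overlapping groups. None of 18 immediate early genes, which neurons switch on within minutes of activity, had an unadjusted p under 0.05 with 12 libraries, and 0 higher and 5 lower with 10. Their median log2 difference with 12 libraries was -0.59 in water and 0.38 in krill oil, and their mean level was lowest in C_O72 and MS_W95.

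The circadian clock list had 0 higher and 3 lower of 16, and 0 higher and 5 lower with 10 libraries. Per2, a repressor of the core clock, had 9.86, 10.3 and 13.1 FPKM in C_W, 12.2, 12.2 and 6.68 FPKM in C_O, 9.89, 6.4 and 5.93 FPKM in MS_W and 7.39, 5.05 and 5.84 FPKM in MS_O. Its log2 difference was -0.60 (SE 0.167, limma, unadjusted p = 0.00414, adjusted p = 0.334), with overlap through C_O72 and MS_W31. Bhlhe40, another repressor of the clock, had 18.2 to 46.4 FPKM (median 40.3) in the 6 unstressed mice and 19.2 to 31.5 FPKM (median 21.8) in the 6 stressed mice, a log2 difference of -0.66 (SE 0.212, limma, unadjusted p = 0.00931, adjusted p = 0.338). C_O72 was the 1 unstressed mouse below the highest stressed mouse for Bhlhe40, and without the pair the difference was -0.84. Hlf, an output factor of the clock, had 16.2 to 41.2 FPKM (median 27.2) in the 6 unstressed mice and 11.4 to 20.9 FPKM (median 16.1) in the 6 stressed mice. The core activators Arntl and Clock were not among the members at an unadjusted p under 0.05. The stress protocol included disturbance of the light cycle, and the hour at which each brain was taken is not given in the sources used here.

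Peptide and monoamine genes are expressed by small groups of neurons. Of 15 hypothalamic peptide genes 3 were higher and 1 lower, with a median log2 difference of 0.64, and 7 higher and 1 lower were counted with 10 libraries. Hypothalamus markers other than these peptides, whose part was not tested, are given beside them. Their summed FPKM was 1.11, 0.95 and 1.37 in C_W, 1.53, 5.93 and 15.8 in C_O, 26.5, 28.4 and 11 in MS_W and 4.11, 3.1 and 3.45 in MS_O, so that it was higher in all MS_W mice than in all C_W mice, while MS_O and C_O overlapped. Of 8 tested hypothalamus markers 1 was higher with 12 libraries and 7 with 10, and the median log2 difference was 0.49, with 1.24 in water and -0.22 in krill oil. Trh, which encodes thyrotropin-releasing hormone, had 7.44, 11.5 and 1.83 FPKM in C_W, 0.77, 4.37 and 0.387 FPKM in C_O, 28.3, 20.3 and 2.91 FPKM in MS_W and 8.84, 37.4 and 53 FPKM in MS_O. The difference of Trh was 1.01 in water and 3.53 in krill oil. Cartpt, the precursor of an appetite-lowering peptide, had 4.55, 2.17 and 2.95 FPKM in C_W, 3.21, 11.9 and 5.55 FPKM in C_O, 13, 22.4 and 28.8 FPKM in MS_W and 4.42, 8.56 and 11.1 FPKM in MS_O. For Cartpt the order was the opposite, 2.38 in water and 0.27 in krill oil, with an unadjusted limma p of 0.00703 for the interaction. Gnrh1, the releasing hormone of the gonadal axis, had 0.213 to 0.60 FPKM (median 0.352) in the 6 unstressed mice and 0.471 to 2.46 FPKM (median 1.55) in the 6 stressed mice, a log2 difference of 0.84 (SE 0.177, limma, unadjusted p = 0.000581, adjusted p = 0.263), and Kiss1, which encodes the peptide that stimulates Gnrh1 neurons, was the lower member, with 0.0001 to 0.773 FPKM (median 0.492) in the 6 unstressed mice and 0.0001 to 0.375 FPKM (median 0.0724) in the 6 stressed mice.

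Of 13 genes for the synthesis, transport and breakdown of monoamines 3 were higher and 0 lower (6 higher and 0 lower with 10 libraries). Th, the rate-limiting enzyme of dopamine synthesis, had 11.1, 12.8 and 2.09 FPKM in C_W, 0.841, 5.07 and 4.83 FPKM in C_O, 21.2, 12.5 and 8.66 FPKM in MS_W and 10.4, 56.6 and 64.9 FPKM in MS_O. The log2 difference was 1.98 (SE 0.629, limma, unadjusted p = 0.00896, adjusted p = 0.338), and the 2 highest values came from the same mice, MS_O46 and MS_O78, that were highest for Gad1 and Trh. The dopamine transporter Slc6a3 (0.0001 to 0.50 FPKM (median 0.0563) in the 6 unstressed mice and 0.167 to 1.63 FPKM (median 0.422) in the 6 stressed mice) and Pnmt, the enzyme that makes adrenaline (0.0001 to 0.205 FPKM (median 0.0573) in the 6 unstressed mice and 0.0001 to 0.529 FPKM (median 0.432) in the 6 stressed mice), were higher at very low levels. Without C_O72 and MS_W95 the median of this list went from 0.28 to 0.084. Of 24 monoamine receptor genes 5 were higher and 1 lower on the FPKM scale, 0 higher and 1 lower with centred libraries, and 8 higher and 3 lower with 10 libraries. Adra1b, the lower one and an alpha-1 adrenergic receptor, had 3.24 to 7.69 FPKM (median 6.26) in the 6 unstressed mice and 2.8 to 6.06 FPKM (median 3.21) in the 6 stressed mice.

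Markers of brain regions are given beside the genes above, and their part in those differences was not tested. The 12 striatal markers, genes of the projection neurons of the striatum, were all above 0, with a median log2 difference of 1.26 (1.39 with 10 libraries), and 5 were higher at an unadjusted p under 0.05 (10 with 10 libraries). Their summed FPKM was 124 to 509 (median 185) in unstressed and 168 to 1155 (median 577) in stressed mice, with MS_W95 the lowest stressed mouse. Penk, which encodes enkephalin, had 79.1, 51.7 and 38.8 FPKM in C_W, 90.2, 181 and 82.8 FPKM in C_O, 349, 468 and 84.9 FPKM in MS_W and 229.7, 237 and 221 FPKM in MS_O, a log2 difference of 1.59 (SE 0.408, limma, unadjusted p = 0.00239, adjusted p = 0.316). Tac1, the precursor of substance P, had 2.65 to 15.2 FPKM (median 4.78) in the 6 unstressed mice and 5.59 to 36.5 FPKM (median 16.5) in the 6 stressed mice. The values overlapped for both genes.

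Of 10 olfactory bulb markers 1 was higher at an unadjusted p under 0.05, with 0 by edgeR and 8 with 10 libraries. The log2 differences of all 10 were above 0 with a median of 1.06, with 2.41 in krill oil and -0.16 in water, a difference that was not tested. Their summed FPKM was 69.5, 84.1 and 15.5 in C_W and 108, 67.2 and 8.78 in MS_W, where MS_W95 was the lowest. It was 13, 38.9 and 4.5 in C_O, where C_O72 was the lowest, and 53.7, 270.1 and 266 in MS_O. The value of -0.16 in water thus includes MS_W95. Over both diets the sum was 4.5 to 84.1 (median 27.2) in unstressed and 8.78 to 270.1 (median 87.8) in stressed mice. The highest sums were those of MS_O46 and MS_O78, the mice that were also highest for Trh and for Th and Gad1, which interneurons of the bulb are known to express. Eomes, a transcription factor of bulb projection neurons, had 0.0205 to 5.09 FPKM (median 1.34) in the 6 unstressed mice and 2.64 to 17 FPKM (median 5.7) in the 6 stressed mice. Of 12 cortical markers 0 were higher and 3 lower, with a median of -0.54, and with 10 libraries 9 were lower and the median was -0.78. No cerebellum or hindbrain marker had an unadjusted p under 0.05 with 12 libraries. The cortical sum was 159.7 to 505 (median 473) in unstressed and 116 to 361 (median 239) in stressed mice, and in the 10 libraries 444 to 505 and 194 to 361 without overlap. Lamp5, a membrane protein of upper-layer cortical neurons, had 60.0 to 114 FPKM (median 93.7) in the 6 unstressed mice and 30.4 to 76.6 FPKM (median 35.5) in the 6 stressed mice, a log2 difference of -1.15 (SE 0.218, limma, unadjusted p = 0.000229, adjusted p = 0.25), and Cux2 and Rorb, transcription factors of these layers, differed by -0.45 (SE 0.193) and -0.51 (SE 0.205). The genes Gad1, Gad2, Slc32a1 and Penk are abundant in striatum and bulb, and Snap25 and Lamp5 in cortex.

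Genes of red blood cells mark blood left in the tissue. Of 5 such genes 0 were higher and 4 lower at an unadjusted p under 0.05, and their summed FPKM was 61.3 to 239.8 (median 184) in unstressed and 12.7 to 412 (median 42.5) in stressed mice. Hbb-bs, a beta globin gene, had 67.1, 72.1 and 54.8 FPKM in C_W, 83.9, 18.7 and 33.6 FPKM in C_O, 9.57, 4.54 and 136 FPKM in MS_W and 5.92, 17.8 and 22.3 FPKM in MS_O. The highest value was in MS_W95, while in 10 libraries the sums were 61.3 to 239.8 and 12.7 to 65.6 and overlapped only at their edges. The brains had been perfused, and how much blood stayed in each was not measured. With edgeR 0 of the 5 had an unadjusted p under 0.05, and with 10 libraries all 5 were lower by limma.

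Glial and vessel markers gave few calls. None of 13 microglia, 15 oligodendrocyte, 6 precursor and 12 vessel markers had an unadjusted p under 0.05, with medians of 0.019, -0.12, 0.029 and 0.052. With 10 libraries 1 microglia, 2 oligodendrocyte, 1 precursor and 2 vessel markers were higher and 0 lower. Of 13 astrocyte markers 1 was higher, the glutamate transporter gene Slc1a3, with 35.1 to 52.2 FPKM (median 48.7) in the 6 unstressed mice and 44.3 to 92.1 FPKM (median 59.5) in the 6 stressed mice, and with 10 libraries 4 higher and 2 lower were counted. Of 14 inflammatory mediators 2 were higher, the chemokine genes Ccl3 and Cxcl10, both under 1 FPKM in every mouse, and with centred libraries neither passed, while 3 higher and 2 lower were counted with 10 libraries. Il1b, Tnf and Il6 had a mean FPKM under 0.1 and were not tested. Gdnf, a neurotrophic factor at low level, was the higher member among 12 neurotrophin genes, with 0.0302 to 0.218 FPKM (median 0.0916) in the 6 unstressed mice and 0.132 to 0.723 FPKM (median 0.314) in the 6 stressed mice, and 4 higher and 1 lower were counted with 10 libraries.

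**Figure D3:**
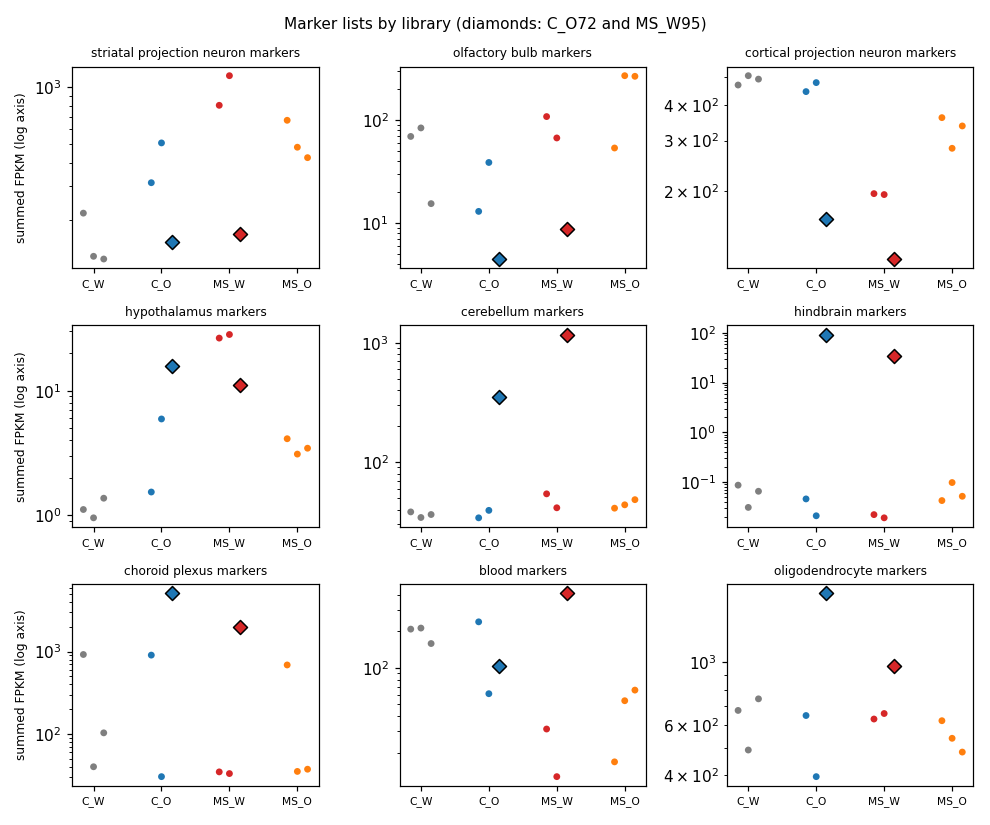
Summed FPKM of the tested markers of 9 lists on log axes, with 1 point per mouse by group and diamonds for C_O72 and MS_W95. The diamonds stand apart in the cerebellum and hindbrain panels, the cortical sums of the other stressed mice lie below those of the other unstressed mice, and the 2 highest olfactory bulb sums are MS_O mice.

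The study also measured lipids. Lists of lipid genes, drawn up here and not taken from the study, were close to the background. Of 33 sphingolipid genes 1 was higher and 1 lower (4 higher and 3 lower with 10 libraries). The higher one was Smpd2, a neutral sphingomyelinase, with 1.67 to 3.14 FPKM (median 1.84) in the 6 unstressed mice and 2.09 to 3.31 FPKM (median 2.88) in the 6 stressed mice. Of 35 glycerophospholipid genes 3 were higher and 1 lower (4 higher and 1 lower with 10 libraries). Gpam, which adds the first acyl chain to glycerol phosphate, had 5.49 to 9.46 FPKM (median 7.69) in the 6 unstressed mice and 9.1 to 12.9 FPKM (median 10.9) in the 6 stressed mice, a log2 difference of 0.49 (SE 0.127, limma, unadjusted p = 0.00256, adjusted p = 0.321), and Selenoi, which makes phosphatidylethanolamine, had 0.549 to 3.12 FPKM (median 0.629) in the 6 unstressed mice and 0.638 to 4.5 FPKM (median 3.65) in the 6 stressed mice. Plpp3, a lipid phosphatase, differed by 0.23 (SE 0.0859) and Lpcat4, a lysophospholipid acyltransferase, by -0.35 (SE 0.141). The medians of both lists, 0.034 and 0.029, changed sign after quantile normalization.

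In the list of polyunsaturated fatty acid handling Fabp7 (ENSMUSG00000019874, chromosome 10, 57784881 to 57788450), the fatty acid binding protein of glial progenitors and astrocytes, was the gene without overlap. It had 9.98, 16.4 and 7.61 FPKM in C_W, 3.58, 14.6 and 7.23 FPKM in C_O, 30.3, 18.9 and 18.9 FPKM in MS_W and 16.8, 46.2 and 79.5 FPKM in MS_O, a log2 difference of 1.63 (SE 0.426, limma, unadjusted p = 0.00271, adjusted p = 0.324). The 2 highest values again came from MS_O46 and MS_O78. Fads3, a desaturase-like gene, was the lower member, at -0.36 (SE 0.14), and 4 higher and 1 lower were counted with 10 libraries. Of 18 cholesterol synthesis genes 0 were higher and 1 lower. None of the 13 mitochondrially encoded genes had an unadjusted p under 0.05, and their sums overlapped, at 36287 to 44971 (median 38078) in unstressed and 34661 to 47653 (median 43699) in stressed mice.

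**Figure D4:**
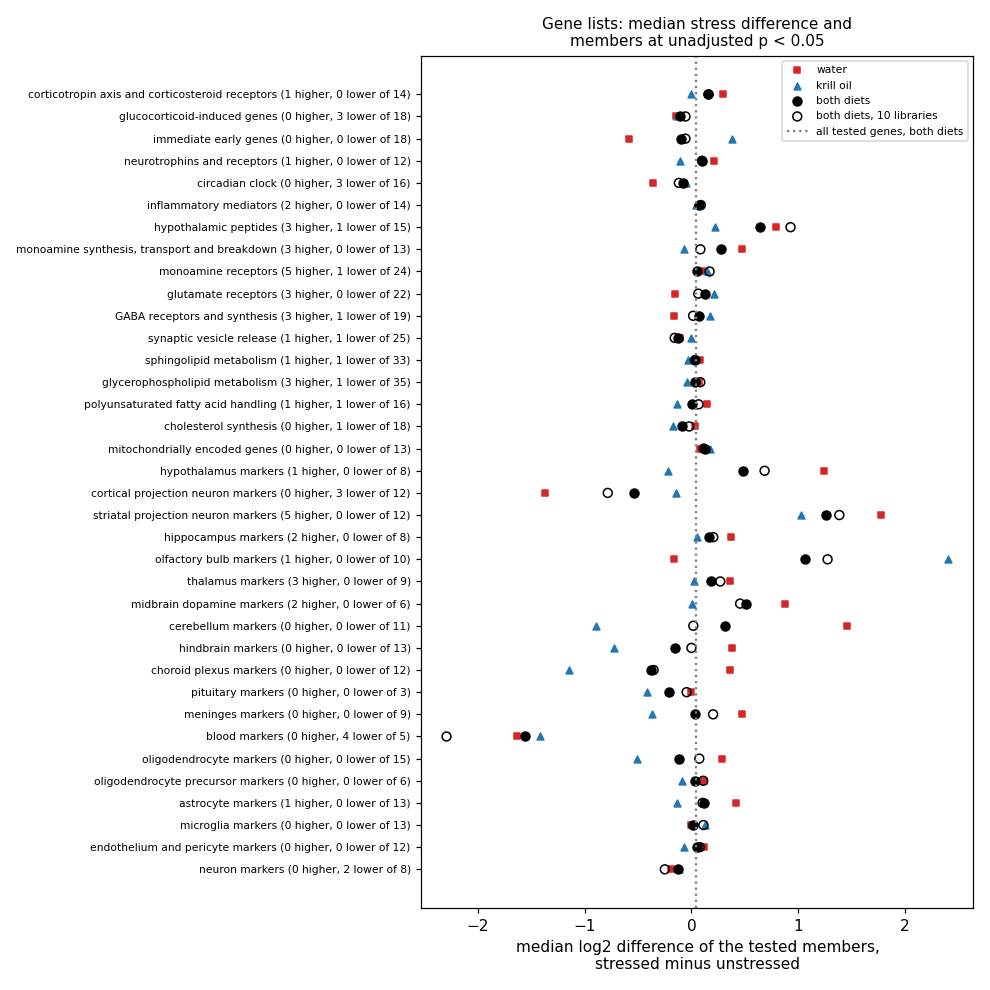
Median log2 difference (stressed minus unstressed) of the tested members of 36 gene lists over both diets (filled circles), with the 10 libraries (open circles), in water (squares) and in krill oil (triangles). The dotted line is the median of all tested genes, 0.047, and the labels count members at an unadjusted p under 0.05. The striatal (1.26) and olfactory bulb (1.06) lists lie to the right of the line and the blood list (-1.56) to the left, all further from it than the hypothalamic peptide and cortical lists (0.64 and -0.54).

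The main effect averages over diets, so the agreement of both diets was counted. Over all tested genes the sign was the same in water and krill oil for 51.4%. The mice of both diets are separate, so genes chosen in water can be read in krill oil. Of 1820 genes higher in water at an unadjusted p under 0.05, 59.3% were also above 0 in krill oil, against 56.7% of all genes, and of 1133 lower genes 57.4% were below 0, against 43.2%. In the reverse direction, 65.1% of 962 genes higher in krill oil were above 0 in water, against 62.1% of all genes, and 52.5% of 303 lower genes were below 0, against 37.9%. Without C_O72 and MS_W95 these shares were 77.3% (all genes 60.9%), 77.4% (38.8%), 75.3% (59.5%) and 66.4% (40.3%). Each of the 4 shares was larger with 10 libraries than with 12.

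The interaction of stress and krill oil passed an adjusted p under 0.05 for 0 genes by limma, with a smallest adjusted p of 0.106, and 1546 genes had an unadjusted p under 0.05. Both C_O72 and MS_W95 belong to groups that are subtracted in this contrast, and with the 10 libraries without them 31 genes passed the adjusted threshold. Of the 57 list members described by smallest p, 56 had the same sign in both diets. Their choice by the difference over both diets favours equal signs, so this count is no support for agreement of the diets. The exception was Gpr101, an orphan receptor of the hypothalamus on the X chromosome, which had 0.129, 0.245 and 0.102 FPKM in C_W, 0.0522, 0.632 and 1.17 FPKM in C_O, 3.97, 3.36 and 2.09 FPKM in MS_W and 0.541, 0.61 and 0.402 FPKM in MS_O. Its difference was 1.81 in water and -0.033 in krill oil.

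**Figure D5:**
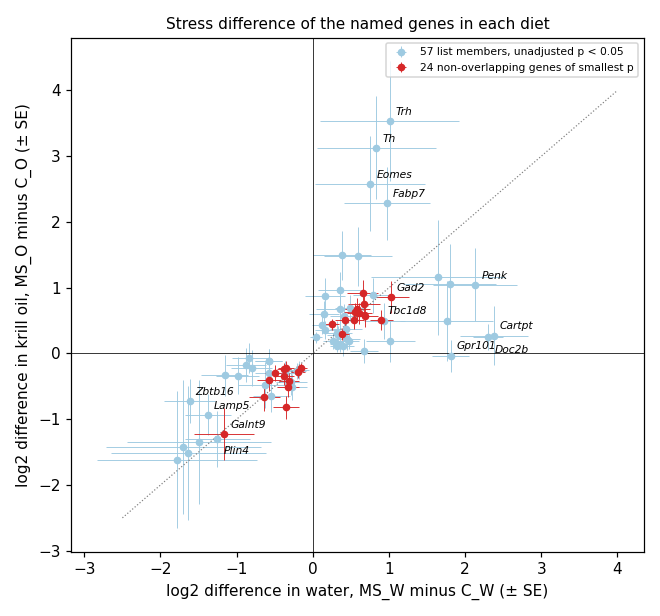
Log2 difference with SE in water (MS_W minus C_W, horizontal) and in krill oil (MS_O minus C_O, vertical) for the 24 non-overlapping genes of smallest p and 57 list members at an unadjusted p under 0.05. Both sets were chosen on the mean of these axes, so points near the dotted line of equal differences, such as Gad2, describe the choice, whereas Doc2b, Cartpt and Gpr101 lie toward water and Trh, Th and Eomes toward krill oil.

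Higher and lower genes were also counted by biotype, level and genomic span. Among protein-coding genes 9.77% were higher and 3.36% lower, and among other biotypes 6.49% and 2.51%. By level, the share higher was 6.15% at 0.1 to 1 FPKM, 11.1% at 1 to 10, 9.04% at 10 to 100 and 5.69% at 100 or more, where the share lower was 5.09%. The median genomic span of the 1483 higher protein-coding genes was 22.9 kb and that of the 511 lower ones 27.5 kb, against 23.6 kb for all 15186 tested. Of the non-overlapping protein-coding genes the 152 higher spanned a median of 22 kb and the 28 lower 31.6 kb.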

How the data were processed

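Total RNA from 12 brains was sequenced as strand-marked poly(A) libraries. Per the labels, the authors trimmed reads with cutadapt 1.9, aligned them to mm10 with HISAT2 2.0.4 and assembled transcripts with StringTie 1.3.4d (the submitters' processing notes also name edgeR and DESeq2). The authors deposited 1 FPKM value and 1 estimated count per gene and library. FPKM are relative to the mapped fragments of a library, and a gene without an estimate is listed at 0.0001. The estimated counts of the authors came from coverage and were rounded here for count tests.

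Genes with a mean of at least 0.1 FPKM were fitted on log2(FPKM + 1) with limma 3.58.1 in R 4.3.3 (lmFit, then eBayes with trend) across all genes, with stress and krill oil as terms. Adjustment followed Benjamini and Hochberg over all 21393 genes, with a threshold of 0.05. The interaction came from a fit of the 4 groups. Exact permutation tests relabelled mice within diets. Other settings tried were a pseudocount of 0.1 or of 0.01, a minimum mean of 1 FPKM or none, quantile normalization, median centring, a fit of the 4 groups, no krill oil term, robust eBayes, array weights, edgeR 4.0.16, DESeq2 1.42.0, and libraries left out. The tests were also run on simulated data with independent genes and set changes. These data held no libraries like C_O72 and MS_W95, so they cannot show how the tests behave with such libraries.

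Members, lists and tests were chosen with earlier results of these data known. Genes were named by adjusted p (none passed), as the 12 higher and 12 lower genes of smallest p without overlap and with a mean FPKM of at least 1 and a given symbol, or as the first 4 members by p of each list (17 process lists and 19 marker lists). Myo5a, Efnb3, Mapt, the main Arhgef4 gene and the 2 promoters shown fell outside this rule or were picked for display. Promoter sequences are from RefSeq. The mice of a group are separate animals. The precision of FPKM depends on the reads sequenced. The estimated counts, 50912906 to 75678721 per library, are not counts of reads or of single molecules. Their lowest and highest values were above the lowest and highest numbers of valid reads per library that the study reports. The edgeR and DESeq2 tests used these estimated counts. Behavior and lipid data were not analysed here, and some genes that met the naming rule are counted but not reported here.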

Additional observations from a re-analysis of the deposited data

Results flagged for a closer look

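A library was marked where its gap to the nearest of the other 5 mice of the same stress condition, divided by the range of the 6, passed the 95% limit of Dixon's test, which chance passes in about 1 of 20 groups. Of 230 groups (79 genes and 36 lists, each in unstressed and in stressed mice, on the scale of log2(FPKM + 1)) 38 were marked, 28 of them for C_O72 or MS_W95.

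For the mean of a list, the ratio of gap to range is given in parentheses. C_O30 was the highest of the unstressed mice for hypothalamic peptides (0.654). C_O72 was the highest of the unstressed mice for monoamine synthesis, transport and breakdown (0.666), sphingolipid metabolism (0.79), cholesterol synthesis (0.637), thalamus markers (0.644), cerebellum markers (0.945), hindbrain markers (0.997), pituitary markers (0.931), oligodendrocyte precursor markers (0.686), astrocyte markers (0.81) and endothelium and pericyte markers (0.649). C_O72 was the lowest of the unstressed mice for immediate early genes (0.754), glutamate receptors (0.707), GABA receptors and synthesis (0.696), synaptic vesicle release (0.696) and cortical projection neuron markers (0.794). MS_W95 was the highest of the stressed mice for monoamine synthesis, transport and breakdown (0.759), sphingolipid metabolism (0.784), cerebellum markers (0.935), hindbrain markers (0.994), pituitary markers (0.815) and astrocyte markers (0.698). MS_W95 was the lowest of the stressed mice for immediate early genes (0.811) and microglia markers (0.725).

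For single genes the same ratio is given. C_O30 was the highest of the unstressed mice for Adra2b (0.665). C_O72 was the lowest of the unstressed mice for Bhlhe40 (0.775), Gria1 (0.732), Gabbr2 (0.779) and Cux2 (0.712). C_W64 was the highest of the unstressed mice for Slc6a3 (0.698). C_W70 was the highest of the unstressed mice for Selenoi (0.756). C_W70 was the lowest of the unstressed mice for Pcp4 (0.726). MS_O13 was the highest of the stressed mice for Bhlhe40 (0.643), Lpcat4 (0.701) and Lamp5 (0.66). MS_O13 was the lowest of the stressed mice for Zbtb20 (0.691). MS_O78 was the lowest of the stressed mice for Synpo2 (0.648). MS_W95 was the lowest of the stressed mice for Selenoi (0.716).

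The mean level of the immediate early genes was lower in every MS_W mouse than in every C_W mouse and higher in every MS_O mouse than in every C_O mouse. The difference of the stress effects, krill oil minus water, was 1.05 on the log2 scale, and this difference was not tested. The mean log2(FPKM + 1) was 3.53, 3.85 and 3.63 in C_W, 3.55, 3.56 and 2.53 in C_O, 3.49, 3.43 and 2.16 in MS_W and 3.57, 3.73 and 3.57 in MS_O. C_O72 (2.53) and MS_W95 (2.16) had the lowest values of their groups, and the size of this difference depends on them. The other C_O and MS_O mice were close to each other.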

How the results depend on the processing

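All 83 genes followed, the 24 without overlap and the list members described, had the same sign under each alternative run for them, which was all 25 for 71 genes and 24 for 12 genes with a mean FPKM under 1, and each of the 24 had an unadjusted p under 0.05 in all of them. Their adjusted p by limma was under 0.05 with array weights, as it was with DESeq2 on estimated counts, for all 24, and in no other setting. For stress, the count of genes with an adjusted p under 0.05 was 2 in the fit of the 4 groups, 2 with the 10 libraries without C_O72 and MS_W95, 214 with DESeq2 and 1186 with array weights. It was 0 to 1 when single libraries were left out (1 without C_W70, C_O15, C_O30 or MS_O13). At an unadjusted p under 0.05 the number was 4593 with the 10 libraries, 5566 with array weights and 1703 to 4236 with single libraries left out (4236 without C_O72, 1703 without MS_O46). The number without overlap was 1027 with the 10 libraries and 230 to 701 with single libraries left out (701 without C_O72, 654 without MS_O13, 467 without MS_W95, 344 without C_O30). Leaving out a mouse can only keep or raise this number, so these counts are no check of it. The interaction had 31 genes past the adjusted threshold with the 10 libraries and 0 to 20 with single libraries left out (20 without C_O15). The share of higher genes among those without overlap was 176 of 206 on the FPKM scale, 73 of 139 after quantile normalization and 41 of 197 with centred libraries. The cause of these differences between settings was not tested. No paired analysis was possible because the mouse numbers in the labels are not shared between the groups. Depth limits genes below 1 FPKM, where many values are listed at 0.0001.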

Other observations

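Smaller differences were seen in markers of other regions. Of 8 hippocampus markers 2 were higher at an unadjusted limma p under 0.05. These were Fibcd1, a marker of the CA1 field, with 1.32 to 2.58 FPKM (median 2.02) in the 6 unstressed mice and 1.57 to 5.54 FPKM (median 3.88) in the 6 stressed mice, and Zbtb20, a transcription factor of hippocampal neurons and astrocytes, with 1.07 to 1.51 FPKM (median 1.22) in the 6 unstressed mice and 1.2 to 2.16 FPKM (median 1.88) in the 6 stressed mice. Both had overlapping groups. Of 9 thalamus markers 3 were higher (Tcf7l2, Ntng1 and Synpo2), and 0 were with centred libraries. Of 6 tested midbrain dopamine markers 2 were higher, Th and Slc6a3, which the monoamine list also holds, and 4 were higher with 10 libraries. The 12 choroid plexus markers, genes of the tissue that makes cerebrospinal fluid, had none at an unadjusted p under 0.05, and their summed FPKM ran from 30.3 to 5099.9 in unstressed and from 33 to 1966 in stressed mice. Of 9 meninges and 3 tested pituitary markers none had an unadjusted p under 0.05. The summed FPKM of the pituitary markers was 49 in C_O72. It was at most 0.545 in the other unstressed mice and at most 0.779 in stressed mice.

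In the fit of the 4 groups with the stress effect averaged over diets, 2 genes passed the adjusted threshold by limma, both named after their values were seen. Doc2b was higher in stressed mice by 1.27 on the log2 scale (adjusted p = 0.0281), with most of the difference in water and overlap of the MS_O and C_O mice. Mapt, which encodes the microtubule protein tau, had a log2 difference of -1.35 (adjusted p = 0.0127). In the main additive limma fit the adjusted p of Mapt was 0.316, and with edgeR it was 0.419. Among the alternatives the adjusted p of Doc2b ran from 0.0281 to 0.58.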
